A study of Caenorhabditis elegans with 33 samples.

Results

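The *dpy-21* mutant was compared with wild type (N2) in poly(A) RNA of whole L3 larvae, in 6 of the 33 libraries of the series, 3 for each strain. The members were chosen by genotype and treatment alone: wild type without auxin, and *dpy-21* without auxin. Wild type was the Bristol strain N2. The mutant carried *dpy-21(e428)* on chromosome V, a null allele taken from the strain CB428 and backcrossed to N2, which gave the strain EKM71. Both strains were grown for 24 hours from synchronized L1 larvae at 20 °C on HGM plates with NA22 bacteria, without auxin, and neither carried a degron tag or TIR1. The mutation is inherited, so that these larvae had never had functional DPY-21 of their own. The other libraries of the series carry *cec-4(ok3124)*, *dpy-27::AID*, TIR1 or combinations of them, with and without auxin.

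Dosage compensation in *C. elegans* lowers transcription from both X chromosomes of hermaphrodites so that it matches the single X of males. The dosage compensation complex (DCC) holds condensin I DC together with the SDC proteins, DPY-30 and DPY-21. DPY-21 is a Jumonji C demethylase that turns H4K20me2 into H4K20me1, the mark that becomes enriched on the compensated X. Condensin I DC still loads on the X without DPY-21, and hermaphrodites that lack it are viable but short and fat (Dpy).

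The unit of all levels is FPKM, fragments per kilobase of transcript as the authors deposited them, with a scaling between libraries that is not stated, and all changes are differences of log2(FPKM + 0.1) between strain means, *dpy-21* minus N2. Of 2893 X-linked genes in the table, 2061 had a mean of at least 1 FPKM over the 33 libraries and were tested, together with 11236 autosomal and 12 mitochondrial genes. Because the table holds no counts and low values gave no clear unit of a single fragment, the depth of the libraries is unknown and no counting interval is given. The N2 libraries stood apart from the rest of the series. Relative to the mean of the 27 other libraries, their FPKM sums were 166%, 132% and 93.6% in replicates 1, 2 and 3, against 98.6% to 104.3% in *dpy-21* and 92.0% to 108.9% among those 27. Transcripts of cytosolic ribosomal proteins held 44.8%, 41.7% and 33.6% of the FPKM in N2, against 34.998% to 36.9% in *dpy-21* and 32.5% to 37.3% elsewhere. Replicates 1 and 2 of N2 were therefore outside the range of all other libraries in both measures, while replicate 3 was inside it. Pearson's r of log2 values was 0.762 to 0.834 between N2 libraries, 0.847 to 0.876 between *dpy-21* libraries and 0.779 to 0.837 between the strains. For this reason the counts, medians and most named genes are set beside a comparison that uses none of these libraries, the double mutant *dpy-21; cec-4* against *cec-4*, and many of them also beside *dpy-21* against untreated *dpy-27::AID*, a strain that has tagged DPY-27 but no TIR1. The latter shares the *dpy-21* libraries, and its values are given side by side only. By the paper's account, untreated *dpy-27::AID* itself had a small but significant X derepression against N2, so it may not be a fully compensated reference.

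The first question was whether X-linked transcripts as a group were higher in the mutant. They were. The median log2 fold change of X-linked genes was 0.66 and that of autosomal genes 0.00, so that X derepression, the difference between these medians, was 0.66 or 1.58-fold. Of the X-linked genes, 82.3% lay above 0, against 50.04% of autosomal genes. The quartiles were 0.18 and 1.44 on the X and -0.38 and 0.66 on the autosomes. No autosome resembled the X: the medians were 0.00 on chromosomes I, II and IV, -0.02 on III and 0.06 on V.

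Each library was then given an X:A score. Each gene's 6-library mean was subtracted first, and the autosomal median of a library was subtracted from its X-linked median. The scores were 0.41, 0.24 and 0.31 in *dpy-21* and -0.37, -0.36 and -0.18 in N2. All 3 mutant libraries were above all 3 N2 libraries, and the N2 library nearest to the mutant was replicate 3. The means were 0.32 ± 0.084 and -0.31 ± 0.11 (SD, n = 3 each), a difference of 0.62 (two-sided exact permutation test p = 0.1, the smallest that 3 against 3 libraries can give). In the double mutant against *cec-4*, with no library in common, the scores differed by 0.69 (exact permutation test p = 0.1, the smallest possible) and X derepression was 0.68. Against *dpy-27::AID* they were 0.59 and 0.59 (exact permutation test p = 0.1). With replicate 3 as the only N2 library, X derepression was 0.52.

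**Figure D1:**
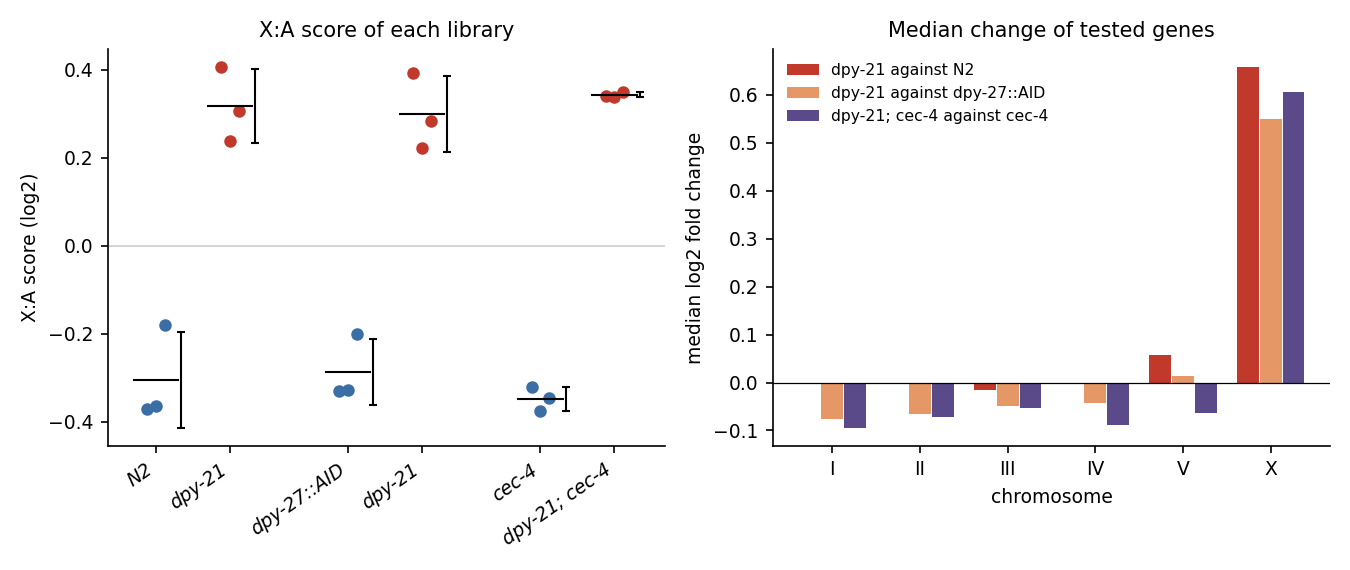
Left, X:A score of each library (log2 scale) in 3 pairs of strains, each centred on its own 6 libraries, with points for libraries, lines for means of 3 and bars for 1 SD, where all libraries with the *dpy-21* allele lie above 0 and all others below 0. Right, median log2 fold change of the tested genes of each chromosome in the same 3 comparisons, with the X at 0.66, 0.55 and 0.61 and every autosome between -0.09 and 0.06.

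The shift was spread along the whole X. In 9 windows of 2 Mb the median X-linked log2 fold change was between 0.56 and 0.72, and 78.0% to 86.5% of the genes of a window lay above 0. The medians of these windows were 0.46 to 0.73 in the double mutant against *cec-4*. By length of the annotated exons, the 516 X-linked genes under 871 bases had a median of 0.46 and the 515 over 2110 bases one of 0.77, beside -0.17 and 0.11 for autosomal genes of the same lengths.

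The size of the X-linked increase fell with the level of the transcript when N2 was the reference, and the autosomal genes fell with it. Level was taken from the 27 libraries outside the comparison. The median X-linked log2 fold change was 1.097 for genes of 1 to 5 FPKM, 0.66 for those of 20 to 50 FPKM and 0.08 for those of 500 FPKM or more. Autosomal genes of these levels had medians of 0.51, -0.06 and -0.40. The distance between X and autosomes was 0.59, 0.72 and 0.47. In the double mutant against *cec-4* the X-linked medians of the same 3 levels were 0.58, 0.64 and 0.55, and the autosomal ones -0.14, -0.10 and 0.01. Against *dpy-27::AID* the X-linked medians were 0.57, 0.54 and 0.41. The fall with level was thus steep in the comparison that contained N2 and small in the other 2, and the part of the N2 libraries in it was not tested further.

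**Figure D2:**
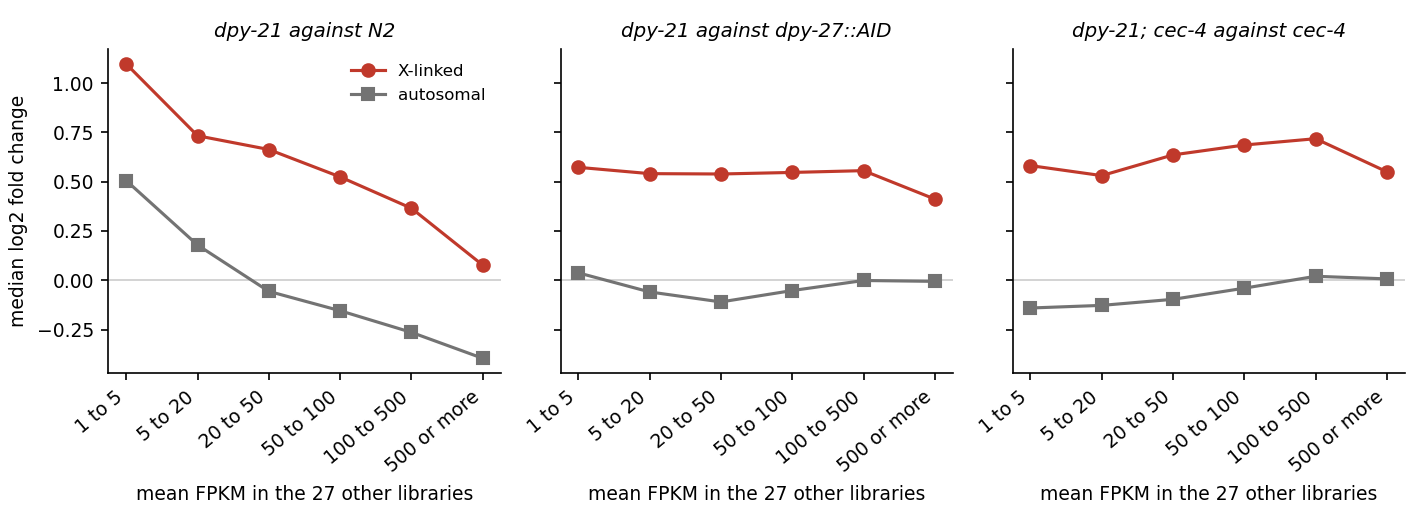
Median log2 fold change of X-linked (red circles) and autosomal genes (grey squares) by mean FPKM in the 27 other libraries, in 3 comparisons; the first 2 share the *dpy-21* libraries. Against N2 both lines fall with level, from 1.097 to 0.08 on the X and from 0.51 to -0.40 on autosomes, and in the other comparisons they are nearly flat.

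Limma with Benjamini-Hochberg adjustment over 13309 genes called 487 genes at an adjusted p under 0.05, or 3.66% of those tested. Of the X-linked genes, 192 (9.32%) rose and 5 (0.243%) fell, and of the autosomal genes 125 (1.11%) rose and 165 (1.47%) fell. Over all genes tested, 2.38% rose and 1.28% fell. The balance on autosomes depended on the scaling: with all libraries set to equal FPKM sums, 302 autosomal genes rose and 49 fell, and 52 of the 170 genes called lower were still called lower. Calls were sensitive to single libraries: 65 genes were called without *dpy-21* replicate 2, 125 without N2 replicate 1 and 1640 without N2 replicate 3, and 46 genes were called in all 6 fits that each left out 1 library (27 X-linked higher, 8 autosomal higher, 11 autosomal lower). Judged by overlap alone, all 3 mutant libraries were above all 3 N2 libraries for 631 X-linked (30.6%) and 867 autosomal genes (7.72%), beside 11.3% of all genes tested. They were below for 24 X-linked (1.16%) and 976 autosomal genes (8.69%), beside 7.51%.

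The called genes were next followed in libraries of neither strain. Of the 192 X-linked genes called higher, 173 were above 0 in the double mutant against *cec-4*, with a median of 0.58, and 18 were also called there. All 2061 X-linked genes had a median of 0.61 and 80.8% above 0 in that comparison, and 147 of them were called higher there. The called genes were thus close to the X as a whole in that comparison. Of the 165 autosomal genes called lower, 139 (84.2%) were below 0 and 6 were called lower, beside 56.2% of all autosomal genes below 0. Of the 125 autosomal genes called higher, 62 (49.6%) were above 0 with 2 called higher and 1, *R11A8.1*, lower, beside 43.2% of all autosomal genes above 0. In that comparison 1.3% of all genes were called higher and 0.263% lower. No test of the difference between these shares was made. The mean of N2 was outside the range of the means of the 9 other conditions for 175 of the 192 X-linked genes that rose (all X-linked genes tested 28.8%), for 100 of the 125 autosomal genes that rose and for 151 of the 165 that fell (all autosomal genes tested 32.4%). The mean of *dpy-21* was outside that range for 42, 29 and 69 of them, beside 9.36% of all X-linked and 13.4% of all autosomal genes tested. Several of those 9 conditions also lack *dpy-21* or DPY-27. Because the called genes were picked by the distance between N2 and *dpy-21*, an extreme mean of either strain is favoured among them. The shares of all genes tested are therefore not a like reference.

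Among the X-linked genes that rose, 18 were called both here and in the double mutant. They included genes of the basement membrane, the muscle attachment, axon guidance and membrane traffic, and this set was chosen after the values were seen. *let-2* (WBGene00002280, WBcel235 X:16380597-16389340), the alpha 2 chain of type IV collagen, was at 48.6, 94.0 and 120 FPKM in N2 and at 187, 238 and 252 in *dpy-21*. The strains did not overlap, and N2 replicate 1 was the lowest library. Its log2 fold change was 1.45 ± 0.24 (SE, limma adjusted p = 0.0022), and in the double mutant against *cec-4* it was 1.22 (limma adjusted p = 0.0091). *lam-2* (X:7143846-7151239), the laminin gamma chain, was at 53.8, 54.9 and 56.8 FPKM in N2 and 102.5, 110 and 118 in *dpy-21*. The libraries of each strain lay close together, and the change was 0.99 ± 0.21 (adjusted p = 0.011), with 1.17 in the double mutant. *F39H12.3* (X:838144-841493) was the only gene called in all 3 comparisons. It stood at 61.3, 74.0 and 86.3 FPKM in N2 against 148, 120 and 136, a change of 0.87 ± 0.17 (adjusted p = 0.0072), with 0.81 in the double mutant and 0.89 against *dpy-27::AID* (limma adjusted p = 0.015 and 0.043). Only 7 genes in all (0.0526%) were called against *dpy-27::AID*.

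The other 15 X-linked genes of this set rose by 0.61 to 2.08. *unc-98*, a zinc finger protein of muscle attachments, was at 48.5, 46.5 and 35.01 FPKM in N2 and 70.7, 82.4 and 70.2 in *dpy-21*. Its change was 0.79 ± 0.21 (limma adjusted p = 0.035). *slt-1*, the Slit guidance ligand, was at 8.79, 22.2 and 28.7 FPKM in N2 and 45.4, 37.1 and 46.1 in *dpy-21*, and N2 replicate 1 was the lowest. *apa-2*, the alpha adaptin of the AP-2 clathrin adaptor, rose by 0.73 ± 0.17 (adjusted p = 0.017), from 48.7 to 61.9 FPKM up to 85.4 to 105. The syntaxin *syx-2* rose by 1.22, the multidrug resistance transporter *mrp-3* by 1.28, the ADAM protease *adm-2* by 1.02, the claudin-like *clc-5* by 0.97 and the acetylcholine receptor subunit *acr-2* by 1.56. Enzymes in the set were *idh-2*, an isocitrate dehydrogenase (0.61), *alh-10*, an aldehyde dehydrogenase (0.92), and *fard-1*, a fatty acyl-CoA reductase (0.86). The remaining members were *F47E1.2* (2.08), *sym-4* (1.25), *F46G10.2* (1.05) and *atrn-1* (0.75). In the double mutant these 15 genes were higher than in *cec-4* by 0.62 to 1.86. *acr-2* was the exception against *dpy-27::AID*, with a log2 fold change of -0.11.

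At the smallest adjusted p-values, X-linked genes were often very low in N2 and ordinary in the mutant. *Y73B3A.20* was at 0, 0.609 and 0.987 FPKM in N2 and at 7.69, 10.2 and 18.4 in *dpy-21*, a change of 4.75 ± 0.64 (limma adjusted p = 5.2e-04). The means of the 9 other conditions were 5.79 to 16.3 FPKM, and the change was -0.12 against *dpy-27::AID* and -0.57 in the double mutant against *cec-4*. *H42K12.3* was at 0, 2.65 and 0 FPKM in N2 and at 23.1, 45.8 and 47.5 in *dpy-21*, with 0.42 and 0.13 in these other comparisons. The N2 libraries were the low ones in the series for both genes. *grd-1*, a hedgehog-related Groundhog protein, was at 1.98, 5.15 and 3.15 FPKM in N2 and 28.9, 27.2 and 42.7 in *dpy-21*, a change of 3.30 ± 0.54 (limma adjusted p = 0.0022). It was -0.02 against *dpy-27::AID*, where the direction turned, and 0.16 in the double mutant. *F21E9.2* (3.02), *H13N06.2* (2.19) and the pseudogene WBGene00000755 (3.90) were also called, and were at 0.57 to 0.94 against *dpy-27::AID* and 0.02 to 0.27 in the double mutant.

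Other genes at the head of the X-linked list lay above 0 in all 3 comparisons. *mfsd-10*, a major facilitator transporter, was at 18.6, 9.94 and 14.8 FPKM in N2 and 42.8, 50.8 and 42.8 in *dpy-21*. The change was 1.69 ± 0.26 (limma adjusted p = 0.0019), beside 1.01 and 0.75, and every other condition had a lower mean than *dpy-21*. *acox-1.6*, a peroxisomal acyl-CoA oxidase, was at 12.6, 16.5 and 15.3 FPKM in N2 and 37.02, 58.1 and 35.5 in *dpy-21* (1.52 ± 0.25, limma adjusted p = 0.0022, beside 0.60 and 0.35). *C43H6.4* rose by 1.59, beside 0.85 and 0.79. Liprin alpha, *syd-2*, which organises presynaptic active zones, was at 10.5, 8.18 and 27.3 FPKM in N2 and 40.5, 39.5 and 44.9 in *dpy-21*. N2 replicate 3 was the nearest to the mutant, and the change was 1.64 ± 0.29 (limma adjusted p = 0.0037), beside 0.67 and 0.57. The LIM protein of muscle attachments *unc-97* rose by 0.62 and the sideroflexin *sfxn-2* by 0.96. *scav-5*, a scavenger receptor, rose by 1.39, the SET-domain gene *set-19* by 1.403, the LAMMER kinase *madd-3* by 2.50 and *ram-5* by 3.45. *sfxn-2*, *scav-5*, *set-19*, *madd-3* and *ram-5* were named after their values were seen. *aps-2*, the sigma subunit of AP-2, rose by 0.89 and was one of the 7 genes called against *dpy-27::AID* (0.99), and was at 0.33 in the double mutant.

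**Figure D3:**
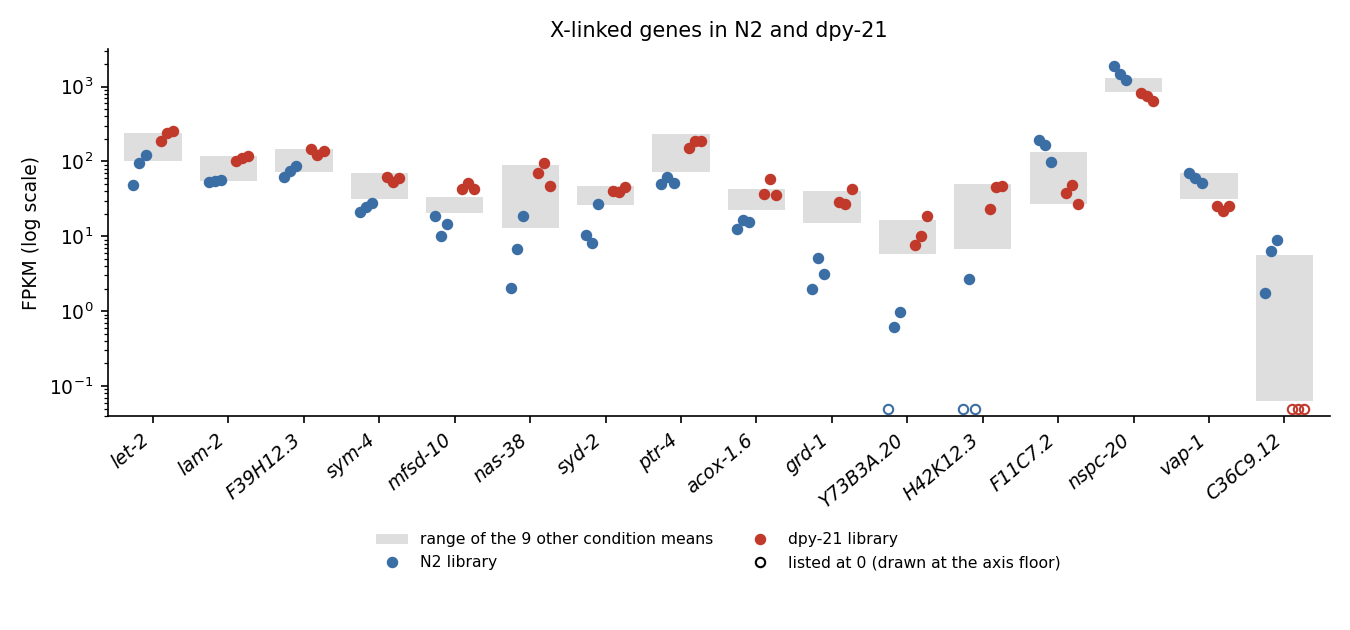
FPKM (log scale) of 16 X-linked genes in each N2 (blue) and *dpy-21* (red) library. The grey band is the range of the means of the 9 other conditions and open points at the axis floor are values listed at 0: for *H42K12.3* the mutant libraries are inside the band and N2 below it, whereas for *mfsd-10* the mutant is above it and N2 below it.

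On the X 5 genes fell. *vap-1*, a secreted CAP-domain protein, was at 71.1, 60.9 and 51.4 FPKM in N2 and 25.01, 22.1 and 25.03 in *dpy-21*, a change of -1.33 ± 0.36 (limma adjusted p = 0.040). *nspc-20*, of a nematode-specific peptide family, was at 1863, 1492 and 1216 FPKM in N2 and 810, 746 and 637 in *dpy-21* (-1.04 ± 0.24, limma adjusted p = 0.017). *F11C7.2* went from 191, 165 and 97.1 FPKM to 37.8, 49.1 and 26.7 (-1.98 ± 0.44, limma adjusted p = 0.013). No library of one strain overlapped the other in these 3 genes. *C36C9.12* was at 1.77, 6.33 and 8.85 FPKM in N2 and listed at 0 in all 3 *dpy-21* libraries. The fifth gene, *B0294.1*, fell by 1.11 on the log2 scale (limma adjusted p = 0.040) and was named because the count is small. All 5 genes were below 0 in the double mutant as well, with a median of -0.27, and none was called there.

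For most X-linked genes the spread between libraries did not allow a call. Beside the 192 that rose and the 5 that fell, 1651 (80.1%) could not be placed on either side, because the 95% interval of their log2 fold change reached the X-linked median or lay above it. For 213 genes (10.3%) that were not called, the interval was wholly under the X-linked median, so that an increase of the usual size was outside it. The same held for 37.6% of autosomal genes. The median log2 fold change of these 213 genes was -0.17, and they were well expressed, with a median of 76.4 FPKM in the 27 other libraries, against 26.2 FPKM for the genes that rose and 14.5 FPKM for all X-linked genes tested. In the double mutant against *cec-4*, which uses none of the 6 libraries, 187 of the 213 (87.8%) were above 0, 21 were called higher, and their median was 0.50, against 0.61 for the X as a whole. Most X-linked genes that did not rise against N2 thus lay above 0 in the double mutant against *cec-4*, where both strains are other ones. Against *dpy-27::AID*, where only the reference differs, the median of the 213 was 0.29, beside 0.55 for all X-linked genes tested.

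The 6 most extreme of these genes, chosen by the upper end of the interval, encode secreted or lysosomal products in several cases. The aspartyl protease *asp-14* was at 114, 62.1 and 220 FPKM in N2 and 11.03, 29.98 and 16.5 in *dpy-21*, with no overlap. Its log2 fold change was -2.71 (95% interval -4.59 to -0.83, limma adjusted p = 0.094), and it was -2.24 in the double mutant against *cec-4*. *nuc-1*, the DNase II that degrades DNA of dying cells, was at 101, 118 and 61.5 FPKM in N2 and 41.8, 38.1 and 61.5 in *dpy-21*, and the lowest N2 and the highest mutant library were level. *nuc-1* was at -0.10 in the double mutant against *cec-4*. *F23A7.8* was at 1684, 1678 and 449 FPKM in N2 and 487, 550 and 433 in *dpy-21*, so that N2 replicate 3 was within the mutant range. The neuropeptide gene *nlp-64*, *abf-5* and *C15H9.11* had log2 fold changes of -1.29, -1.06 and -1.08 against N2 and of 0.67, 0.24 and 0.41 in the double mutant against *cec-4*. Families with several X-linked members of this kind were *nlp* (6 of 17 tested), *flp* (5 of 13) and the saposin-like *spp* genes (5 of 8). Their medians against N2 were 0.05, -0.01 and -0.39, and in the double mutant 0.80, 0.60 and 0.42.

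The transcripts of the complex itself gave no call. DPY-21's own transcript was at 15.8, 21.5 and 33.97 FPKM in N2 and at 21.6, 18.1 and 20.4 in *dpy-21* (-0.17 ± 0.22, limma adjusted p = 0.72). The strains overlapped, and since the lesion of the allele is not given in the sources used here, this level does not check the labels. The condensin I DC subunits *dpy-27*, *dpy-26*, *dpy-28*, *mix-1* and *capg-1* had log2 fold changes of -0.13 to 0.32. The X-linked *sdc-2*, which directs the complex to the X, was at 2.66, 4.92 and 7.02 FPKM in N2 and 6.40, 5.92 and 6.86 in *dpy-21* (0.49 ± 0.31, limma adjusted p = 0.39). For *sdc-1*, *sdc-3* and *dpy-30* the log2 fold changes were 0.24, 0.18 and -0.28. The H4K20 methyltransferase genes *set-1*, which makes the monomethyl mark, and *set-4*, which makes the di- and trimethyl marks, had 0.24 and -0.13. None of these 12 genes was called at an adjusted p under 0.05. The transcript of *cec-4*, named after its values were seen, was at 18.1, 5.34 and 19.6 FPKM in N2. In *dpy-21* it was at 11.3, 0 and 2.103 FPKM (-3.20 ± 1.95, limma adjusted p = 0.37), and the strains overlapped. It was listed at 0 in all 3 *cec-4* and all 3 double mutant libraries. Why *cec-4* was at or near 0 in replicates 2 and 3 of *dpy-21* was not tested.

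Among the gene lists, the largest positive medians against N2 belonged to genes of the larval cuticle and its renewal: the astacins, the moulting genes and the hedgehog-related genes. These lists share members. The shares and medians of all genes set beside them here and below are not matched for level. The counts of called members are to be read beside all genes tested, of which 9.32% rose and 0.243% fell on the X and 1.11% rose and 1.47% fell on autosomes, and the medians beside 0.66 for the X and 0.00 for autosomes (0.61 and -0.08 in the double mutant). Of the X-linked astacin metalloproteases, 3 of 8 rose (all X-linked genes 9.32%; *nas-38*, *nas-37* and *nas-15*, the last named because the count is small), with a median of 2.45. In the double mutant the median of these 8 was 0.46, under the 0.61 of all X-linked genes. *nas-38* was at 2.05, 6.87 and 18.6 FPKM in N2 and 70.0, 95.8 and 47.2 in *dpy-21* (3.38 ± 0.63, limma adjusted p = 0.0052), beside 2.39 against *dpy-27::AID* and 1.73 in the double mutant. *nas-37*, which acts in moulting, was at 8.63, 6.75 and 1.75 FPKM in N2 and 26.97, 59.8 and 60.3 in *dpy-21* (3.26), and at -0.05 against *dpy-27::AID*, where the direction turned. In the double mutant *nas-37* was at 0.14 and *nas-15* at -0.30. Of the autosomal members 2 of 19 rose, *nas-36* by 2.45 and *nas-7* by 1.95 (all autosomal genes 1.11%), and these were at -0.68 and -0.72 in the double mutant, where the direction turned. The median of these 19 was 1.53 against N2 but -0.28 in the double mutant against *cec-4*.

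The hedgehog-related and patched-related genes, which in nematodes act largely in the epidermis and in moulting, had positive medians as well. Of 11 X-linked members 4 rose (all X-linked genes 9.32%): *grd-1*, *hog-1* (1.96), *wrt-9* (2.50) and the patched-related *ptr-4*. The median of the 11 was 1.70 against N2 and 0.33 in the double mutant, under the 0.61 of all X-linked genes there. *ptr-4*, needed for moulting, was at 49.8, 61.4 and 51.2 FPKM in N2 and 153, 189 and 187 in *dpy-21* (1.70 ± 0.37, limma adjusted p = 0.013), beside 0.95 in the double mutant, where *hog-1* and *wrt-9* were at 0.41 and 0.07. Of 52 autosomal members 1 rose, *ptr-1* (1.44, named as the only one), and 2 fell, *grd-10* (-1.32) and *grd-3* (-1.36), beside 1.11% and 1.47% of all autosomal genes, although the median was 1.203, which was -0.43 in the double mutant. Moulting genes on the X had 2 of 6 called higher (*ptr-4* and *nas-37*) with a median of 2.11, and those on autosomes 1 of 14 (*nas-36*) with 1.003. The called moulting genes are thus the same genes that were counted in the lists above. In the double mutant the medians of the moulting genes were 0.71 on the X and -0.11 on autosomes. The collagens of furrows and body shape, where mutations give Dpy and Rol animals, had none of 16 autosomal members called and a median of 1.16, which was -0.53 against *dpy-27::AID* and -0.73 in the double mutant. In the autosomal lists of this kind N2 replicate 3 was apart from replicates 1 and 2. For the 16 collagens the centred median was -1.09, -0.93 and 0.28 in N2 and 0.30, 0.89 and 0.51 in *dpy-21*, so that replicate 3 was close to the mutant. For the autosomal cuticlin genes replicate 3 (0.60) was inside the mutant range of 0.32 to 0.72. Here *cut-2* rose, from 293, 196 and 637 FPKM to 1266, 3757 and 2126 (2.70 ± 0.57, limma adjusted p = 0.011), and was at -0.34 in the double mutant. Among 82 autosomal *col* collagens 2 rose (*col-47* and *col-104*, beside 1.11% of all autosomal genes) and 5 fell (beside 1.47%), with a median of 0.08. *col-80* fell from 356, 243 and 180 FPKM to 50.6, 30.95 and 46.1 (-2.58 ± 0.48, limma adjusted p = 0.0052), beside -1.19 and -1.23 in the other comparisons.

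**Figure D4:**
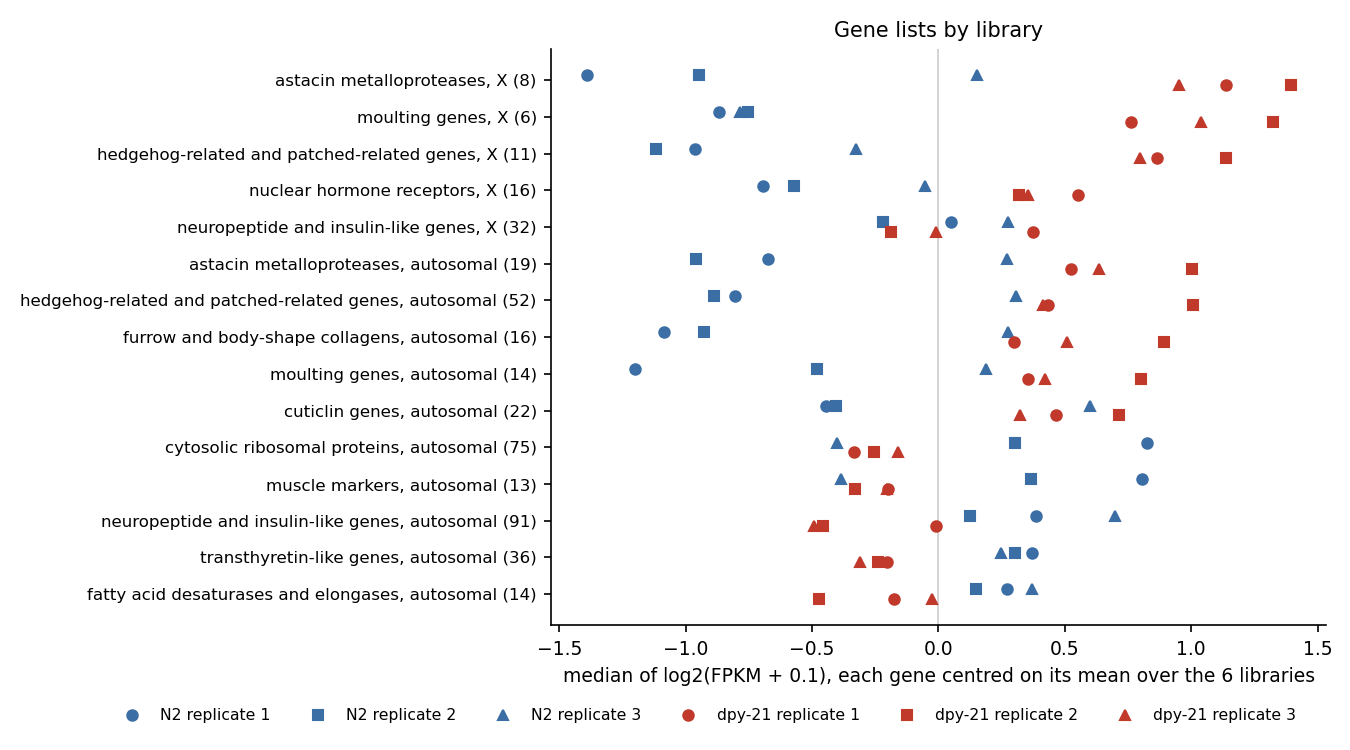
Median of log2(FPKM + 0.1) over the tested members of 15 gene lists (number in brackets) in each N2 (blue) and *dpy-21* (red) library, each gene centred on its mean over the 6 libraries. N2 replicate 3 (blue triangles) lies next to or within the mutant libraries for the autosomal cuticle lists, the ribosomal proteins and the muscle markers, and away from them for the X-linked hedgehog-related genes, the neuropeptide genes and the transthyretin-like genes on autosomes.

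X-linked nuclear hormone receptors were above 0 in all 16 tested members, with a median of 0.86 (0.63 in the double mutant). Only 1 of the 16 was called, *nhr-28*, which rose by 1.23. Of all X-linked genes tested, 82.3% were above 0 and 9.32% were called higher, with a median of 0.66 (0.61 in the double mutant). The peroxins were picked by the share of their symbol stem called higher in these data. Of them 2 of 10 rose (all genes tested 2.38%), both X-linked: *prx-1* from 4.61 to 5.99 FPKM up to 12.4 to 13.8 (1.36), and *prx-3* (0.996). The median of the 10 was -0.03. X-linked genes best known from mutants, a list of 34 tested genes, had a median of 0.43, under the 0.66 of all X-linked genes. In this list 4 were called higher (*let-2*, *syd-2*, *unc-97* and *fard-1*; all X-linked genes 9.32%), with none lower. The 7 X-linked muscle markers had a median of -0.07 with none called, and 0.48 in the double mutant. The pharyngeal myosin *myo-2*, named after its values were known, was at 208, 139 and 109 FPKM in N2 and 185, 142 and 158 in *dpy-21*, and the strains overlapped.

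Among autosomal genes that rose, *lact-8*, a gene with a beta-lactamase domain, had the smallest adjusted p-value. It was at 0, 0.0873 and 0 FPKM in N2 and at 14.6, 20.8 and 5.80 in *dpy-21* (6.63 ± 0.67, limma adjusted p = 4.8e-06). All 9 other conditions had means of 3.28 to 14.8 FPKM, so that N2 was the low group. *mab-3*, a DM-domain factor of male development, was listed at 0 in all 3 N2 libraries and was at 3.31, 4.71 and 2.203 FPKM in *dpy-21*, and all 9 other conditions had means above N2. *K01D12.8* (6.04), *R11A8.1* (4.75), *Y43F8B.23* (4.29) and the carnitine palmitoyltransferase *cpt-4* (2.67) were also called, each with every other condition above N2. *C06A1.7* was listed at 0 in N2 and at 2.94, 8.59 and 12.2 FPKM in *dpy-21*, and it was listed at 0 in untreated *dpy-27::AID* too. It was also listed at 0 in all 3 double mutant libraries, and was at 0, 0 and 0.641 FPKM in *cec-4*.

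A pair of neighbouring genes of DEG/ENaC channel subunits on chromosome I rose. *acd-1* (I:4103698-4108167) was at 1.55, 2.01 and 2.41 FPKM in N2 and 17.6, 20.5 and 18.3 in *dpy-21*. Libraries of a strain lay close together, and the change was 3.19 ± 0.56 (limma adjusted p = 0.0037). It was 5.86, 8.23 and 5.16 FPKM in *cec-4* and 17.9, 19.8 and 16.2 in the double mutant (1.497, limma adjusted p = 0.20). *delm-2* (I:4109407-4112385) was at 0, 2.05 and 0.126 FPKM in N2 and 17.8, 7.49 and 9.40 in *dpy-21* (4.90 ± 1.07, limma adjusted p = 0.013). It was also called against *dpy-27::AID* (6.195) and was at 3.39 in the double mutant. The values of *delm-2* were known when it was chosen. The 2 autosomal genes called higher in both the single and the double mutant were *irg-5*, an infection response gene, and *C25E10.4*. *irg-5* was at 24.1, 11.8 and 7.82 FPKM in N2 and 283, 167 and 51.1 in *dpy-21* (3.35 ± 0.83, limma adjusted p = 0.025), and rose by 4.51 in the double mutant, from 8.85 to 35.3 FPKM up to 365 to 486. *C25E10.4* rose by 1.422 and 1.58.

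The autosomal genes that fell held neuropeptides, transthyretin-like genes, galectins and lipid enzymes. Called falls were more frequent at high levels. With level taken outside the comparison, 0.07% of autosomal genes of 1 to 5 FPKM were called lower. The shares were 5.32% at 100 to 500 FPKM and 7.38% at 500 FPKM or more. The autosomal genes called lower had a median level of 96.5 FPKM, against 15.7 FPKM for all tested. The shares of all genes below are not matched for level, and falls beyond genes of like level were not tested. Of 91 autosomal neuropeptide and insulin-like genes 8 fell and none rose, beside 1.47% of all autosomal genes that fell, with a median of -0.69. *nlp-35* was at 154, 129 and 154 FPKM in N2 and 84.5, 57.9 and 23.8 in *dpy-21* (-1.57 ± 0.33, limma adjusted p = 0.011). *flp-16* fell by 1.16, *nlp-11* by 1.02 and *flp-24* by 1.01 on the log2 scale. In the double mutant against *cec-4* the direction turned for *nlp-35* (0.36) and *flp-16* (0.14), and *nlp-11* and *flp-24* were at -0.28 and -0.33. Of 13 autosomal neuron markers 2 fell (all autosomal genes 1.47%), *egl-21* and *sbt-1*, which act in the maturation of such peptides. The median of the 13 was -0.27, with 3 above 0 and the highest at 1.57. It was -0.05 against *dpy-27::AID* and -0.08 in the double mutant. The convertase *egl-3* of the same list, named after its value was known, was at -0.77 (limma adjusted p = 0.12). *egl-21*, the carboxypeptidase E, was at 430, 321 and 539 FPKM in N2 and 233, 179 and 185 in *dpy-21* (-1.09 ± 0.22, limma adjusted p = 0.0088). *sbt-1*, the 7B2 chaperone of the proprotein convertase, went from 742, 533 and 704 FPKM to 389, 284 and 359 (-0.94 ± 0.23, limma adjusted p = 0.023). None of these libraries overlapped between strains, and N2 replicate 3 was the highest or second highest library for *egl-21* and *sbt-1*. The median of the 91 genes in the double mutant against *cec-4* was -0.15, and *egl-21* and *sbt-1* were at -0.10 and -0.11. In bulk RNA of whole larvae, fewer cells of a type and less RNA per cell cannot be told apart.

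Of 36 autosomal transthyretin-like genes 7 fell and none rose, while of 11 X-linked ones 2 rose (*ttr-35* and *ttr-37*) and none fell. Of all genes tested 1.47% fell on autosomes and 9.32% rose on the X, without matching for level. *ttr-29* was at 48.6, 43.9 and 23.9 FPKM in N2 and 11.6, 9.97 and 5.01 in *dpy-21* (-2.14 ± 0.43, limma adjusted p = 0.0082), beside -1.51 against *dpy-27::AID* and -1.48 in the double mutant. *ttr-2* fell from 1375, 1079 and 503 FPKM to 310, 275 and 436 (-1.44), and was at -0.16 in the double mutant. On the X, *ttr-35* was at 55.1, 48.6 and 52.8 FPKM in N2 and 92.9, 131 and 77.6 in *dpy-21* (0.91 ± 0.25, limma adjusted p = 0.040), and was at 0.22 in the double mutant. The median of the autosomal members was -0.56 against N2, 0.17 against *dpy-27::AID* and -0.19 in the double mutant. Galectins fell in 3 of 12 tested genes, *lec-10* (-0.999), *lec-5* (-0.82) and *lec-4* (-0.83), beside 1.28% of all genes tested. Their stem was picked from 121 symbol stems by its share called lower in these data, and the median of the 12 was -0.14. *lec-10* was at 1383, 1205 and 714 FPKM in N2 and 554, 526 and 512 in *dpy-21*, and N2 replicate 3 was the nearest to the mutant. The values of *lec-10*, *lec-5* and *lec-4* in the double mutant were -0.30, -0.13 and -0.10. Of 13 *txt* genes, a stem picked in the same way, 3 fell (*txt-17*, *txt-13* and *txt-14*), and these were at -0.86, -0.31 and -0.05 in the double mutant.

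Some genes of lipid metabolism and of defence fell as well, and here too the shares of all genes are not matched for level. Of 14 fatty acid desaturases and elongases 3 fell, the elongase *elo-2* (-0.83) and the desaturases *fat-3* (-0.62) and *fat-2* (-0.57), with a list median of -0.58 (all autosomal genes 1.47% and 0.00). *fat-3* was at 272, 258 and 274 FPKM in N2 and 209, 137 and 184 in *dpy-21*, with no overlap, and was at 0.21 in the double mutant against *cec-4*. The acyl-CoA synthetase *acs-19* fell from 386, 249 and 449 FPKM to 101, 130 and 157 (-1.46 ± 0.28, limma adjusted p = 0.0064), and was at -0.15 in the double mutant. The lipase *lipl-2* was at 14.3, 20.6 and 19.7 FPKM in N2 and 4.71, 2.27 and 1.73 in *dpy-21* (-2.72 ± 0.73, limma adjusted p = 0.038). The saposin-like antimicrobial gene *spp-1* was at 199, 221 and 294 FPKM in N2 and 77.6, 105 and 113 in *dpy-21* (-1.27 ± 0.30, limma adjusted p = 0.019), and it fell by 1.63 in the double mutant (limma adjusted p = 0.0071). The lysozyme *lys-7* fell from 669, 457 and 882 FPKM to 197, 148 and 113 (-2.12 ± 0.52, limma adjusted p = 0.023), with -0.48 in the double mutant. Of 99 autosomal C-type lectins 3 fell and none rose, beside 1.47% of all autosomal genes that fell. *dhs-9*, a short-chain dehydrogenase (-0.78 and -1.13), and *pqn-24* (-0.66 and -0.65) were called lower in the single and in the double mutant. *mek-2*, the MAP kinase kinase of the Ras pathway, fell from 128, 108 and 89.3 FPKM to 53.1, 57.2 and 61.5 (-0.90 ± 0.15, limma adjusted p = 0.0022). Its means in the 9 other conditions were 57.4 to 75.4 FPKM, all under N2, and it was at 0.22 in the double mutant.

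A cluster of *pud* genes, named for proteins that are more abundant in *daf-2* mutants, held the steepest falls. The window from 2 to 3 Mb of chromosome V had 8 of 89 tested genes called lower, the most of any autosomal window of 1 Mb, and 4 of the 8 were *pud* genes. *pud-2.2* (V:2329444-2329954) was at 1281, 1829 and 485 FPKM in N2 and 11.8, 7.28 and 20.96 in *dpy-21* (-6.41 ± 1.37, limma adjusted p = 0.011). *pud-3* (V:2324634-2325152) was at 21.5, 72.4 and 21.5 FPKM in N2 and listed at 0 in all 3 *dpy-21* libraries, and *pud-1.2* (V:2322038-2322566) was at 782, 764 and 267 FPKM and listed at 0 in all 3. *pud-4* was at 71.6, 39.8 and 25.7 FPKM in N2 and 0, 4.03 and 0 in *dpy-21*. In *cec-4*, *pud-2.2* was at 623, 176 and 261 FPKM and in the double mutant at 14.8, 3.97 and 4.24 (limma adjusted p = 0.037). *pud-3* was at 28.1, 3.90 and 17.6 FPKM in *cec-4* and at 0 in all 3 double mutant libraries. Untreated *dpy-27::AID*, in which *dpy-21* is intact, was low in some libraries too. There *pud-2.2* was at 24.5, 90.04 and 729 FPKM, *pud-3* at 0, 10.02 and 64.6 and *pud-1.2* at 0, 0 and 474, and none was called against *dpy-21* (limma adjusted p = 0.37, 0.17 and 0.54). Paralogs in this cluster are near-identical, and the copy *pud-1.1* was at 0, 0 and 58.1 FPKM in N2 and 5.49, 2.71 and 34.9 in *dpy-21*, so that the split between *pud-1.1* and *pud-1.2* is uncertain. The cluster was described after its values were seen.

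**Figure D5:**
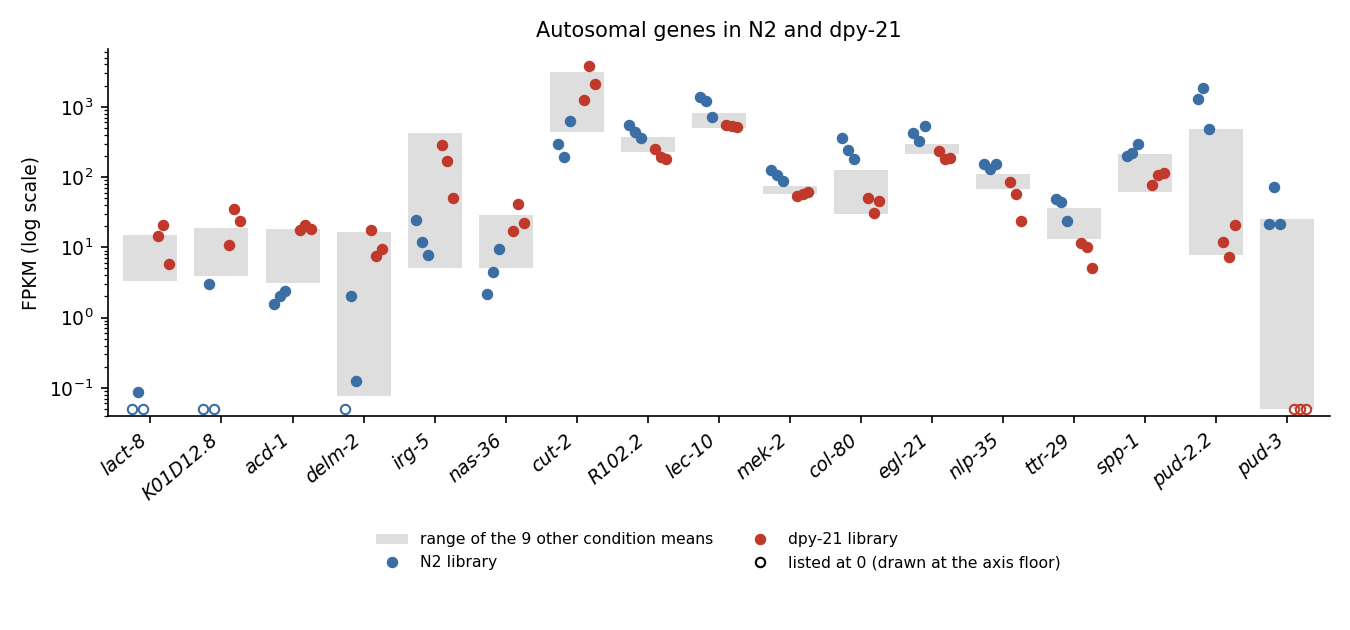
FPKM (log scale) of 17 autosomal genes in each N2 (blue) and *dpy-21* (red) library, with the range of the means of the 9 other conditions as a grey band and values listed at 0 as open points at the axis floor. For *acd-1* and *K01D12.8* N2 is below the band, and for *mek-2* and *egl-21* it is above it.

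Several lists with negative medians had their highest levels in the N2 libraries that stood apart. The 75 autosomal genes of cytosolic ribosomal proteins had a median of -0.49 and 2 called lower (*rps-3* and *rps-20*). Their centred medians were 0.82, 0.30 and -0.40 in N2 and -0.33, -0.26 and -0.16 in *dpy-21*, so that N2 replicate 3 was below the mutant and replicates 1 and 2 above it. *rps-3* was at 8771, 7484 and 4050 FPKM in N2 and 4146, 4176 and 4222 in *dpy-21*. The 13 autosomal muscle markers, with a median of -0.46 and none called, were at 0.81, 0.37 and -0.39 in N2 and -0.20, -0.33 and -0.20 in *dpy-21*. In the double mutant against *cec-4* the medians of these lists were 0.01 and -0.10. Their part in the calls of single genes was not tested. The larval stage was checked with transcripts of major sperm proteins and yolk proteins, of which only 4 of 37 genes passed the filter, with no call. Germline markers had 1 of 20 called, the Piwi gene *prg-1* (from 34.8, 23.7 and 14.3 FPKM to 39.002, 74.9 and 55.3, log2 fold change 1.25).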

How the data were processed

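Whole L3 larvae of 11 conditions with 3 libraries each were sequenced. The submitters' processing notes name CutAdapt 2.3, FastQC 0.11.8, Salmon 1.9.0, DESeq2 1.42.0 and the build WBcel235, and the authors deposited FPKM values for 21975 genes. How FPKM was scaled is not stated. Median-of-ratios factors computed here were all 1, so that the deposited values were already level by that measure and scaling by it changed nothing. Columns were matched to samples by their labels, and gene positions came from the WBcel235 annotation, where all 21975 genes were found.

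Log2(FPKM + 0.1) values of genes with a mean of at least 1 FPKM were fitted with limma 3.58.1 (R 4.3.3) on all 33 libraries, with 11 condition means, a trend in the prior variance and no block. P-values were adjusted by Benjamini-Hochberg over 13309 genes (threshold 0.05). X:A scores were compared by exact permutation (scipy 1.17.1). Nothing states that replicates were separate cultures, so p-values measure the spread between libraries, which may be technical. For limma this spread was pooled over all 11 conditions, while N2 libraries correlated less with each other than *dpy-21* libraries did. The limma p-values may thus understate the spread of N2. In a simulation over 13309 genes, each gene had the same spread in all 33 libraries. There, 18% of genes moved by 1 and 54% of those moved by 2 were called. The simulation did not include the ways in which the N2 libraries stood apart, so its rates may not hold for this comparison.

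Named genes were the complex, the smallest adjusted p-values among non-overlapping genes (10 X-linked and 8 autosomal higher, 4 X-linked and 8 autosomal lower), the 6 X-linked genes of at least 20 FPKM with the lowest intervals, up to 4 called members per list and direction, and called members of the 4 symbol stems (of 121) with the largest share called in each direction. Members and the 43 lists were chosen with earlier results of these data known. Alternatives were pseudocounts of 1 and 0.01, no filter, a minimum of 5, median-of-ratios and equal-sum scaling, a replicate block, 6 libraries only, array weights, protein-coding genes only, *dpy-27::AID* in place of N2 and leaving out libraries.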

Additional observations from a re-analysis of the deposited data

Results flagged for a closer look

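A test of the difference between the effect of the *dpy-21* mutation with *cec-4* mutant (double mutant minus *cec-4*) and without (*dpy-21* minus N2) was run over all 13309 genes with limma, and 7 genes passed an adjusted p of 0.05 (1627 at an unadjusted p under 0.05). The X minus autosome difference of this test was 0.07. For 4 of the 7, no group was listed at 0 throughout. *lact-8* had a difference of -7.566 (limma adjusted p = 7.5e-05). It was near 0 FPKM in N2, at 5.80 to 20.8 in *dpy-21*, at 9.54 to 22.8 in *cec-4* and at 6.07 to 7.92 in the double mutant. *R11A8.1* had a difference of -8.079 (limma adjusted p = 0.0014), with 0 to 0.453 FPKM in N2, 6.48 to 8.17 in *dpy-21*, 5.88 to 8.70 in *cec-4* and 0 to 3.01 in the double mutant. *Y73B3A.20*, on the X, had a difference of -5.319 (limma adjusted p = 0.0077), and *mek-2* one of 1.122 (limma adjusted p = 0.033). In these 4 genes N2 lay outside the means of the 9 other conditions, and its part in the difference was not tested.

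The other 3 genes are neighbours on chromosome V, *clec-7*, *F10G2.2* and *F10G2.1* (V:7328392-7333424). All 3 were listed at 0 in the 3 *cec-4* libraries, so no difference is given. *F10G2.1* was between 73 and 144 FPKM in N2, 82.3, 77.6 and 45.8 in *dpy-21* and 65.5, 68.7 and 32.9 in the double mutant.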

How the results depend on the processing

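The sign of the X shift did not change in any setting tried. Median-of-ratios scaling, a replicate block and a fit of only the 6 libraries left X derepression at 0.66 by construction and do not test it. X derepression was 0.54 with a pseudocount of 1, 0.52 with N2 replicate 3 alone (an alternative chosen after seeing the data) and 0.60 to 0.69 when libraries were left out one by one, and the difference in X:A score was then 0.58 to 0.68. Counts of calls moved far more, and the cause was not tested. Array weights called 1725 genes (480 X-linked higher, 13 lower, 607 autosomal higher, 620 lower). Equal FPKM sums moved the median of all genes to 0.39 and called 774 (420, 3, 302 and 49), so that 722 rose and 52 fell, beside 317 and 170. A fit of only the 6 libraries, with fewer residual degrees of freedom, called 50 (12, 0, 30 and 8), *dpy-27::AID* in place of N2 called 7 (4, 0, 3 and 0), and N2 replicate 3 alone 310 (95, 1, 145 and 69). Without the filter 3 X-linked and 104 autosomal genes fell. Leaving out 1 library gave 65 to 1640 calls, with 38 to 402 X-linked genes higher, 0 to 13 lower, 10 to 627 autosomal genes higher and 16 to 594 lower.

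With *dpy-27::AID* in place of N2 the log2 fold change turned for *Y73B3A.20* (-0.12), *acr-2* (-0.11), *clec-65* (0.15), *col-47* (-0.70), *fbxa-209* (-0.021), *fbxc-44* (-0.17), *grd-1* (-0.015), *grd-10* (0.43), *nas-37* (-0.0499), *nhr-41* (-0.12) and *ttr-16* (0.14). With N2 replicate 3 alone it turned for *clec-66* (0.065), *gst-20* (0.28) and *rps-3* (0.0459). The replicate numbers paired no libraries (r of same-numbered deviations -0.05, -0.02 and -0.04), and not every library correlated best with its own number. With a replicate block 422 genes were called, and X derepression, which a block cannot change in this balanced design, was 0.66.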
